A study of Arabidopsis thaliana with 16 samples.

Results

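Untreated control seedlings of Col-0, the reference wild-type accession of Arabidopsis thaliana, were sampled in both experiments of this study, and the 2 sets of controls are set against each other here. The 15 min mock consists of 2 libraries from 14-day-old whole seedlings that had been in liquid 1/2 MS, a mineral nutrient medium, for 15 min. The 6 h mock consists of 2 libraries from 10-day-old whole seedlings that had been in the same kind of medium for 6 h. These 4 libraries were picked by their labels from 16 in the series, with earlier results of these data known. The other 12 are the 4 corresponding mocks of seu-6, a mutant of the transcriptional co-regulator gene SEUSS (SEU), and libraries of both genotypes under 300 mM NaCl for 15 min or 250 mM sorbitol for 6 h. No NaCl or sorbitol was given to either mock, and all plants were raised with 16 h of light and 8 h of dark per day. Seedling age, time in the liquid and experiment differ together between the mocks, so their shares in any difference cannot be told apart. The hour of the day at which seedlings were collected is not given in the sources used here, nor is the number of seedlings per library. Replicates are numbered in the labels with no word on separate cultures, so p-values measure the spread between these libraries, which may be technical.

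The 4 libraries held between 40686385 and 42676953 counts in genes, within the range of 39756463 to 42676953 over the series. Replicates correlated across genes with r = 0.988 in the 15 min mock and 0.992 in the 6 h mock, and they differed by more than counting noise. The TMM scaling factors, which correct for the make-up of a library, were both 0.95 in the 15 min mock and both 1.09 in the 6 h mock. On the first principal component of all 16 libraries, with 44.1% of the variance, the 8 libraries of the 15 min experiment lay between -70.0 and -62.3 and the 8 of the 6 h experiment between 57.9 and 77.1. SEU had 0.401 to 1.16 CPM (counts scaled to the size of the library, per 1000000) in the 8 seu-6 libraries, against 40.6 to 54.5 CPM in the 8 Col-0 libraries. All 5 shoot markers and all 16 root markers were detected in each of the 4 Col-0 mock libraries. Seed storage and oleosin transcripts were near the limit of detection in all 4, with a summed level of 2.77 and 3.53 CPM over 14 genes in the 15 min mock, against 2.67 and 2.89 CPM in the 6 h mock.

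Several gene programmes that such a pair of controls may differ in are well described in Arabidopsis. Moving or touching a plant raises cytosolic calcium and, within minutes, transcripts of touch genes, zinc finger, WRKY and ERF factors and jasmonate genes, most of which decline again within hours. The circadian clock is a loop in which morning factors such as CCA1 and LHY repress evening genes such as TOC1 and ELF4, whose products act back on the morning genes. As a seedling ages, the microRNA balance shifts so that repressors of flowering such as TOE1 and TOE2 decline, and the share of young, dividing tissue shrinks.

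Transcript levels of most expressed genes differed between the 15 min mock and the 6 h mock. Of 22582 genes tested with edgeR's quasi-likelihood F test, 14117 (62.5%) had a Benjamini-Hochberg adjusted p under 0.05, and such genes are called here. In the 15 min mock 6877 genes (30.5%) were higher and 7240 (32.1%) were lower, and the median log2 fold change of all genes tested was -0.02. Scaling by total counts in place of TMM moved that median to -0.22 and the split to 5283 higher and 10033 lower. A change of at least 2-fold was called for 4400 genes (19.5%), 3006 higher (13.3%) and 1394 lower (6.17%), or 2489 higher and 2225 lower with total-count scaling. At 8-fold or more, 705 called genes were higher in the 15 min mock and 118 were lower. The groups did not overlap for 18014 genes (79.8%), so a lack of overlap carries little weight for any single gene. Log2 fold changes below are 15 min over 6 h, ± a standard error derived from the fit, whose spread comes from all 8 groups of the series with 8 residual degrees of freedom.

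**Figure D1:**
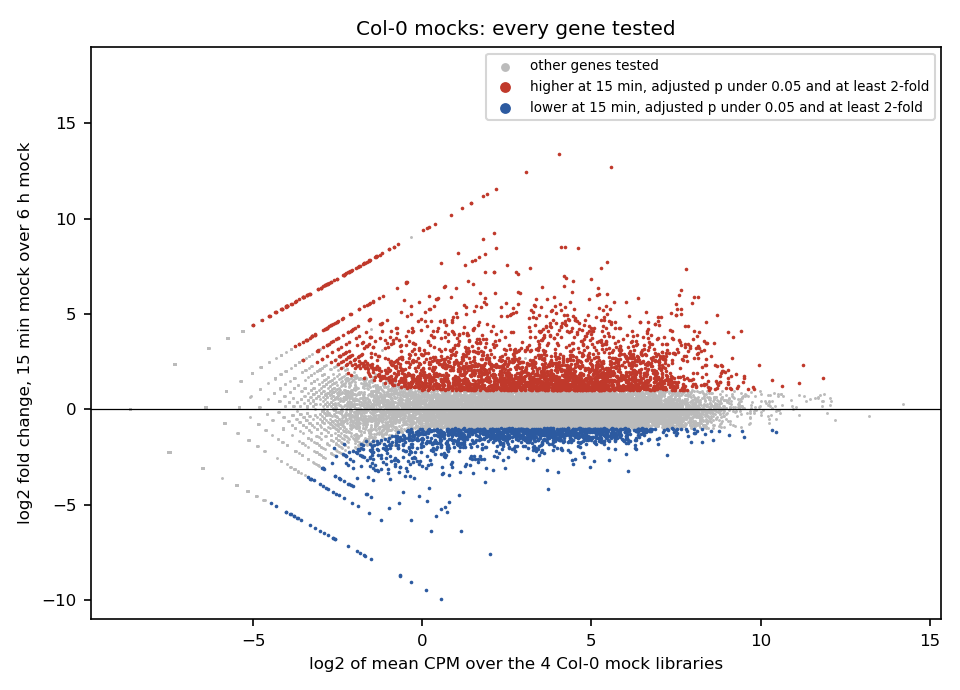
Log2 fold change (15 min mock over 6 h mock, y axis) of each gene tested in Col-0 against the log2 of its mean CPM over the 4 mock libraries (x axis), with genes called and at least 2-fold higher in red, those at least 2-fold lower in blue and the rest in grey. The 3006 red genes reach farther from 0 than the 1394 blue ones at most levels, and the slanted lines at the left and top are genes with few or no counts in one group, whose fitted size depends on the prior count.

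Touch and calcium genes were mostly higher in the 15 min mock than in the 6 h mock. TCH4 (AT5G57560), a wall-modifying xyloglucan endotransglucosylase first found as a touch-induced gene, had 1328 and 1270.4 CPM in the 15 min mock, against 75.7 and 73.5 CPM in the 6 h mock. CML38 (AT1G76650), a calmodulin-like calcium sensor, had 236 and 242 CPM in the 15 min mock, against 8.13 and 8.65 CPM in the 6 h mock. In both cases each 15 min library was far above each 6 h library, by 4.12 ± 0.035 on the log2 scale for TCH4 and 4.83 ± 0.059 for CML38. TCH2 (AT5G37770) and TCH3 (AT2G41100), which encode further calmodulin-like proteins, were higher by 17.8-fold and 11.1-fold, although 34.3% and 43.9% of their spans are shared with other genes and their counts are less certain. The calcium-dependent kinase genes CPK28 (AT5G66210) (3.40 ± 0.039) and CPK32 (AT3G57530) (2.995 ± 0.041) were higher as well. Of 15 members tested, 13 were higher and 2 lower, and the median was 3.40. The 2 that were lower were ACA12 (AT3G63380), a plasma membrane calcium pump (-1.42 ± 0.073), and CML41 (AT3G50770) (-0.85 ± 0.16). By edgeR, the highest adjusted p among these 8 genes was 5.2e-06.

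The promoter of TCH2 is shown as the touch gene with the most copies of the core CGCGTT, which is bound by calmodulin-binding CAMTA factors and known from rapid stress genes. It is the stretch of 250 bases before the annotated start at chr5:14999620-14999869 (TAIR10.1, minus strand, RefSeq annotation), 5′ to 3′, with the core in capitals on either strand.
TCH2: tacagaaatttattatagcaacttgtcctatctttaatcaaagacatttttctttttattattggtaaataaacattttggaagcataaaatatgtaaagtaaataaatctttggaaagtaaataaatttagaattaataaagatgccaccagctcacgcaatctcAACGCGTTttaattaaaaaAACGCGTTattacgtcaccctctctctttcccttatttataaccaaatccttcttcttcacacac
The run AACGCGTT, which is its own reverse complement and so holds the core on both strands, stands there at 2 places. The core was found on either strand in 711 of 27443 such promoters of protein-coding genes (2.59%), and in 609 of 21761 of genes tested (2.80%). It stood in 186 of 2911 promoters of genes called at least 2-fold higher in the 15 min mock (6.39%). Of those called at least 2-fold lower, 21 of 1305 held it (1.61%). In the touch and calcium list 2 of 15 promoters held it, TCH2 and CML23 (AT1G66400) (4.05 ± 0.15). A match is a description of the letters only, and the promoter of TCH4 holds no CGCGTT in this window.

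Zinc finger, WRKY and ERF factors of early stress responses were higher almost without exception. ZAT10 (AT1G27730), a zinc finger repressor of abiotic stress responses, had 359.8 and 358 CPM in the 15 min mock, against 9.87 and 9.08 CPM in the 6 h mock, a 37.8-fold difference (5.24 ± 0.052). WRKY40 (AT1G80840), which dampens defence and ABA responses, had 404 and 388 CPM in the 15 min mock, against 5.22 and 5.20 CPM in the 6 h mock. The WRKY40 libraries of the 2 groups lay 76.0-fold apart (6.25 ± 0.055). All 8 ZAT and AZF factors tested, of 11 written for the list, were higher, with a median of 4.18. Among 21 WRKY factors chosen for stress roles 18 were higher and 1 lower, and the median was 2.50. WRKY33 (AT2G38470), a factor of camalexin synthesis and fungal defence (3.61 ± 0.038), WRKY18 (AT4G31800) (3.65 ± 0.046) and WRKY53 (AT4G23810) (4.62 ± 0.087) were among the 18, and WRKY29 (AT4G23550) (-0.60 ± 0.11) was lower. Over all 67 WRKY genes tested, a family count added after these results were seen, 34 were higher and 9 lower, with a median of 0.38. No edgeR adjusted p among the 6 genes named exceeded 1.4e-06.

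Of 22 CBF, DREB and ERF factors tested, 21 were higher in the 15 min mock and none was lower, with a median of 3.98. Over the 24 tested genes with an ERF symbol, a family count added after these results were seen, 14 were higher and 3 lower, with a median of 0.87. DDF1 (AT1G12610), a DREB factor that promotes gibberellin breakdown under stress, had 93.7 and 96.5 CPM in the 15 min mock, against 0 and 0.0226 CPM in the 6 h mock. The 6 h value rests on 1 count over both libraries, and the ratio of summed counts had a 95% exact interval of 1530.2 to 336900, around 8528. ERF13 (AT2G44840) (6.85 ± 0.15), ERF11 (AT1G28370) (6.07 ± 0.11) and ERF6 (AT4G17490) (4.83 ± 0.064), quick ethylene-response factors, were higher, and ERF6 had 256 and 261 CPM in the 15 min mock, against 9.38 and 8.77 CPM in the 6 h mock. CBF2 (AT4G25470), a regulator of cold tolerance, was 10.4-fold higher, with the caution that CBF1, CBF2 and CBF3 are close copies. DREB2A (AT5G05410), a drought and heat factor, had 56.7 and 60.4 CPM in the 15 min mock, against 2.95 and 2.71 CPM in the 6 h mock. CBF4 (AT5G51990) had 2.36 and 2.22 CPM in the 15 min mock, against 0 and 0 CPM in the 6 h mock, so that its 15 min level was at least 34.2-fold higher when 3 counts per library are taken as the floor. RRTF1 (AT4G34410), a factor of redox stress, had 32.6 and 32.7 CPM in the 15 min mock, against 0 and 0 CPM in the 6 h mock, which is at least 488-fold higher at the same floor, but 69.5% of its span is shared with other annotated transcripts. CBF3 was not called (0.11 ± 0.22). ERF105, which lies wholly inside another annotated gene, is listed at 0 in every library and was not measured. Adjusted p-values from edgeR were at most 8.2e-14 for the 8 called genes in this list.

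**Figure D2:**
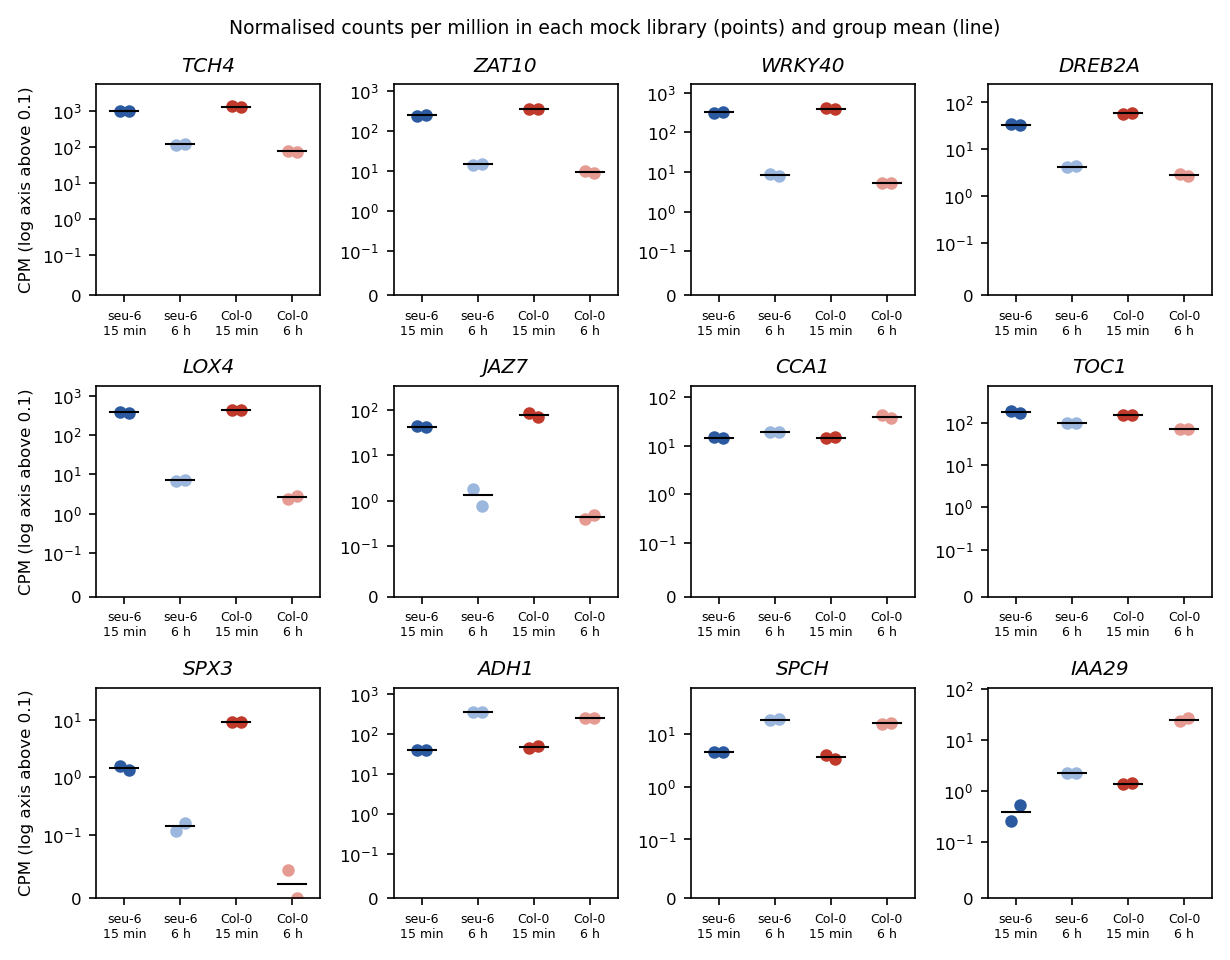
Normalised CPM (y axis, logarithmic above 0.1 and linear below) of 12 genes in each of the 8 mock libraries, with seu-6 in blue and Col-0 in red, 2 points per group and a line at the group mean. TCH4, ZAT10, WRKY40, DREB2A, LOX4, JAZ7, TOC1 and SPX3 lie above the 6 h mock of Col-0 in the 15 min mock, and CCA1, ADH1, SPCH and IAA29 lie lower.

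Jasmonate genes stood higher in the 15 min mock at most steps from synthesis to breakdown. Jasmonate is the wound hormone made in plastids and peroxisomes from linolenic acid, and its active form releases transcription by destroying JAZ repressors, whose own genes it switches on. LOX4 (AT1G72520), a lipoxygenase of the first step, had 443 and 431 CPM in the 15 min mock, against 2.40 and 2.89 CPM in the 6 h mock, a 165-fold difference (7.37 ± 0.11). LOX3 (AT1G17420) behaved alike (5.98 ± 0.060), and OPR3 (AT2G06050), the reductase of the peroxisomal steps, had 466 and 475 CPM in the 15 min mock, against 35.1 and 38.9 CPM in the 6 h mock (3.67 ± 0.047). LOX2 (AT3G45140), the lipoxygenase of leaf chloroplasts, differed little, with 157 and 148 CPM in the 15 min mock, against 132 and 127 CPM in the 6 h mock (0.24 ± 0.037, not called at 0.050 with total-count scaling). AOS (AT5G42650) (2.53 ± 0.036) was higher too, as were AOC1, AOC2 and AOC3, 3 close copies whose reads may be misassigned among them.

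Of the JAZ repressor genes, JAZ7 (AT2G34600) had 83.3 and 70.5 CPM in the 15 min mock, against 0.397 and 0.497 CPM in the 6 h mock, which is 171-fold (7.42 ± 0.20). JAZ8 (AT1G30135) (7.01 ± 0.21), JAZ5 (AT1G17380) (5.23 ± 0.10) and JAZ10 (AT5G13220) (4.26 ± 0.086) followed. JAZ1 (AT1G19180), one of the more abundant repressor transcripts, had 509.6 and 509.8 CPM in the 15 min mock, against 51.2 and 52.1 CPM in the 6 h mock (3.302 ± 0.037). JAZ12 (AT5G20900) moved least of the called ones (0.53 ± 0.055). Cytochrome P450 genes of jasmonate breakdown were higher as well, unlike the sulfotransferase gene ST2A (-3.23 ± 0.056), with CYP94B3 (AT3G48520) at 99.4 and 102 CPM in the 15 min mock, against 1.96 and 2.12 CPM in the 6 h mock (5.62 ± 0.092) and CYP94C1 (AT2G27690) at 4.12 ± 0.072 on the log2 scale. The vegetative storage protein genes VSP1 (AT5G24780) and VSP2 (AT5G24770), classic late markers of the hormone, were 4.67-fold and 5.12-fold higher. In all 24 of 26 members tested were higher and none lower, with a median of 2.75, or 2.54 with DAD1, which has no count in the 6 h mock, set at its bound. DAD1 and AOC4 were not called, but DAD1 was called without replicate 1 of the 15 min mock (5.89) and AOC4 without replicate 2 of the 15 min mock (0.21), both higher. MYC2, the master factor of the pathway, is listed at 0 in every library and 98.5% of its span is shared with a second annotated locus, so it was not measured. The edgeR adjusted p was 6.3e-08 or lower for the called jasmonate genes named here, the highest being that of LOX2.

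The JAZ7 promoter is shown because this gene had the largest fold of the jasmonate list, and the capitals mark a G-box, CACGTG, the hexamer that MYC factors bind. It lies at chr2:14572780-14573029 (TAIR10.1, plus strand).
JAZ7: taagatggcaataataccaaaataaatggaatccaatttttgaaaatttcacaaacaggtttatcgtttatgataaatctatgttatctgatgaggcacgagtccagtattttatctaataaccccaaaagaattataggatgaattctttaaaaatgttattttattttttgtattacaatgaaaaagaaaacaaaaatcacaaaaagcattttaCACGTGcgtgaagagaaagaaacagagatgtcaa
G-boxes are common, and 1780 of the 27443 promoters held one (6.49%). The share was 7.34% among genes tested and 8.86% among those called at least 2-fold higher in the 15 min mock. In the jasmonate list 5 of 27 promoters held one, those of AOS, JAZ2, JAZ3, JAZ7 and JAZ8. CACGTG is its own reverse complement, so 1 match counts for both strands.

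Defence genes of the salicylate branch were also higher in the 15 min mock. PR1 (AT2G14610), the textbook marker of salicylate signalling, had 47.7 and 46.8 CPM in the 15 min mock, against 3.13 and 1.94 CPM in the 6 h mock (4.21 ± 0.082). SARD1 (AT1G73805) (2.81 ± 0.079) and CBP60G (AT5G26920) (2.25 ± 0.068), which drive salicylate synthesis, EDS1 (AT3G48090) (1.68 ± 0.059) and PAD4 (AT3G52430) (1.48 ± 0.072), which relay immune receptor signals, and NHL10 (AT2G35980) (3.36 ± 0.18) were higher. ICS1 (AT1G74710), the synthesis enzyme itself, was higher by only 1.70-fold. In total 18 of 19 members were higher and 1 was lower, with a median of 1.64. The exception, PBS3 (AT5G13320) (-0.50 ± 0.16), conjugates a salicylate precursor, and its call was lost without replicate 1 of the 15 min mock (-0.42) or of the 6 h mock (-0.41). Of 42 cysteine-rich receptor-like kinase (CRK) genes, a family added after the results were seen, 31 were higher, 27 of them by at least 2-fold, and 5 lower, with a median of 1.70. Across the 8 genes named the edgeR adjusted p did not exceed 0.006, the value of PBS3.

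Dehydration and heat shock genes were higher by smaller steps. ERD10 (AT1G20450), a dehydrin, had 748 and 754 CPM in the 15 min mock, against 151 and 147 CPM in the 6 h mock (2.34 ± 0.030), and COR47 (AT1G20440) had 1189 and 1226 CPM in the 15 min mock, against 571 and 579 CPM in the 6 h mock (1.07 ± 0.026). RAB18 (AT5G66400) (2.80 ± 0.090) and the phosphatase gene PP2CA (AT3G11410) (2.02 ± 0.046), a negative regulator of ABA signalling that ABA induces, were higher as well. RD29A (AT5G52310) was higher by only 1.25-fold, and COR15A (AT2G42540) (-0.27 ± 0.043) and KIN1 (AT5G15960) (-0.30 ± 0.050) were slightly lower, KIN1 being a close copy of KIN2. Of 24 ABA and dehydration genes, 19 were higher and 4 lower (median 0.96). Of 12 heat shock genes 10 were higher and 1 lower (median 1.57), among them HSP70 (AT3G12580) (2.48 ± 0.085) and the factors HSFA4A (AT4G18880) (2.47 ± 0.066) and HSFB2A (AT5G62020) (2.60 ± 0.11). The lower one, HSP21, had counts in 1 of the 4 libraries only, replicate 2 of the 6 h mock, at 0.316 CPM, and the heat shock list had 10 higher and 0 lower members without that library or without either library of the 15 min mock. In edgeR, adjusted p reached at most 2.9e-07 among the 9 genes given with a log2 value in this paragraph.

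Ethylene genes were divided, also within a role. ACS6 (AT4G11280), an ACC synthase whose transcript rises within minutes of touch, had 201 and 202 CPM in the 15 min mock, against 13.8 and 13.3 CPM in the 6 h mock (3.89 ± 0.053). EFE (AT1G05010), an ACC oxidase of the last step of synthesis, had 271 and 275 CPM in the 15 min mock, against 591 and 607 CPM in the 6 h mock (-1.13 ± 0.030). The receptor genes ETR2 (AT3G23150) (-1.27 ± 0.068) and ERS1 (AT2G40940) (-0.62 ± 0.041) and the F-box gene EBF2 (AT5G25350) (-0.81 ± 0.044) were lower. Of 13 members 5 were higher and 6 lower, against 30.5% higher and 32.1% lower of all genes, with a median of -0.46, and total-count scaling left 3 higher. By edgeR, the highest adjusted p among these 5 genes was 2.5e-21.

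**Figure D3:**
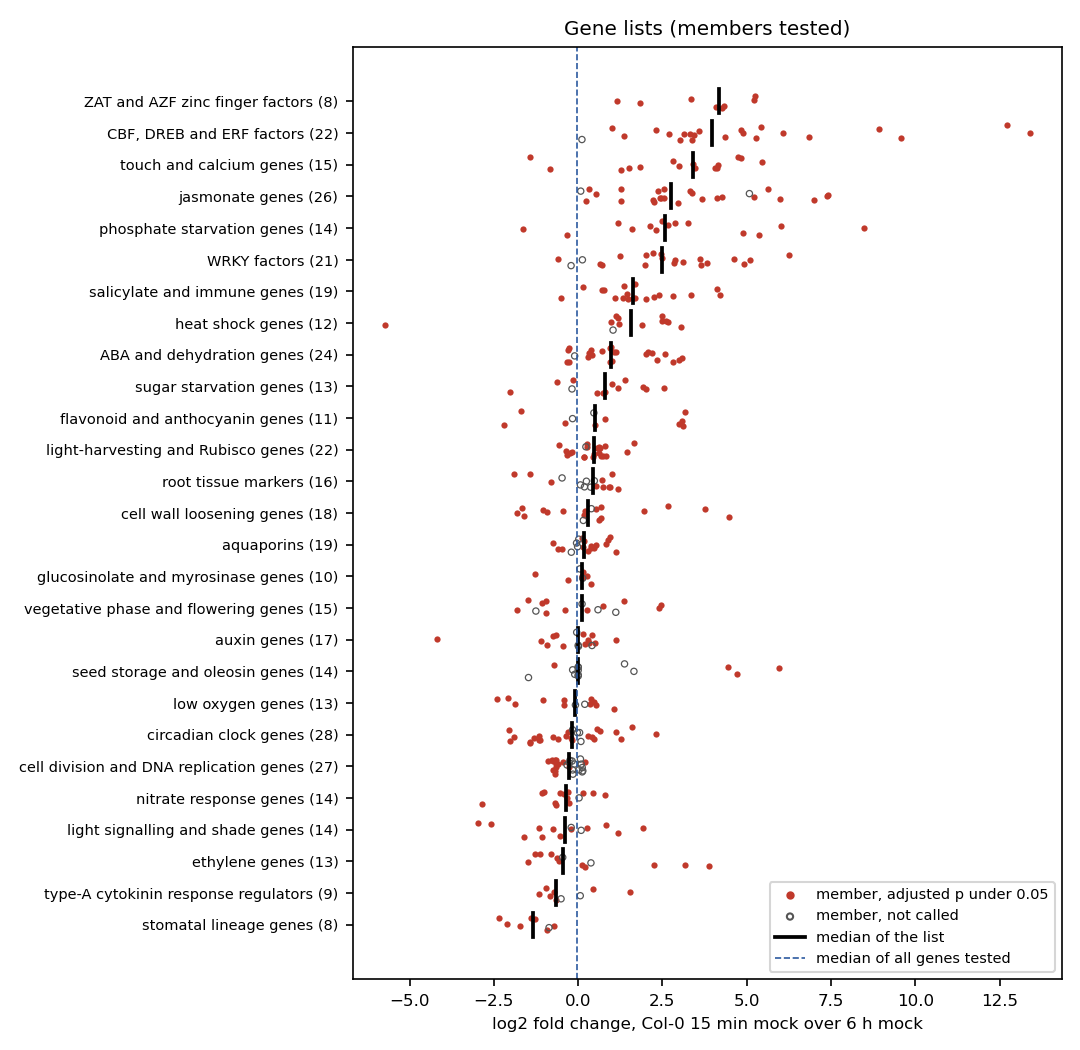
Log2 fold change (15 min mock over 6 h mock, Col-0, x axis) of the tested members of 27 gene lists, 1 row per list with the number of members in brackets, red points for called members, open circles for members not called, and a black bar for the list's median. The rows run from zinc finger factors (median 4.18) at the top to stomatal lineage genes (median -1.34) at the bottom, and the dashed blue line marks the median of all genes tested at -0.02.

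Clock genes of the morning were lower in the 15 min mock and several clock genes of the evening were higher. CCA1 (AT2G46830), a MYB factor that peaks at dawn and represses evening genes, had 14.5 and 14.7 CPM in the 15 min mock, against 42.1 and 36.7 CPM in the 6 h mock (-1.43 ± 0.081). Its partner LHY (AT1G01060) had 5.98 and 6.43 CPM in the 15 min mock, against 26.7 and 24.4 CPM in the 6 h mock (-2.04 ± 0.13). Both 15 min libraries lay below both 6 h libraries for each gene. PRR9 (AT2G46790), the earliest of the day's pseudo-response regulators, had 5.46 and 7.89 CPM in the 15 min mock, against 25.5 and 29.3 CPM in the 6 h mock (-2.04 ± 0.12), and PRR5 (AT5G24470) was lower by 1.67-fold. LNK2 (AT3G54500), a co-activator that works with the RVE factors, had 130.0 and 123 CPM in the 15 min mock, against 338 and 339 CPM in the 6 h mock (-1.42 ± 0.037), and LNK1 (AT5G64170), LNK3 (AT3G12320) and LNK4 (AT5G06980) were lower too (-0.37 ± 0.056, -1.32 ± 0.13 and -1.16 ± 0.077). Of the RVE factors, relatives of CCA1, RVE8 (AT3G09600) (-1.17 ± 0.15), RVE1 (AT5G17300) (-1.12 ± 0.17) and RVE2 (AT5G37260) (-1.91 ± 0.16) were lower, and RVE4 (AT5G02840) (-0.21 ± 0.049) and RVE7 (AT1G18330) (-0.31 ± 0.096) were lower by less. The call of RVE7 was lost without replicate 2 of the 15 min mock (-0.20) or of the 6 h mock (-0.22).

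On the evening side TOC1 (AT5G61380) had 155 and 154 CPM in the 15 min mock, against 72.4 and 70.5 CPM in the 6 h mock (1.11 ± 0.040). ELF4 (AT2G40080), a subunit of the evening complex that represses growth and PRR genes at night, had 20.9 and 23.2 CPM in the 15 min mock, against 6.72 and 7.75 CPM in the 6 h mock (1.61 ± 0.099). BOA (AT5G59570), a close relative of the evening complex factor LUX, was higher by 4.94-fold (2.304 ± 0.21), and LUX (AT3G46640) itself by 1.32-fold (0.40 ± 0.054), with 47.9% and 38.5% of their spans shared with a neighbour. CHE (AT5G08330), a TCP factor that represses CCA1, was higher (1.27 ± 0.055), as were PRR3 (AT5G60100) (0.65 ± 0.091), FKF1 (AT1G68050) (0.54 ± 0.071), GI (AT1G22770) (0.29 ± 0.034) and GRP8 (AT4G39260) (0.47 ± 0.073). A further subunit, ELF3 (AT2G25930), was slightly lower (-0.18 ± 0.054), though not called without replicate 2 of the 15 min mock (-0.12). PRR7 (0.041 ± 0.031), GRP7 (0.081 ± 0.096), ZTL (-0.026 ± 0.063) and LKP2 (-0.17 ± 0.091) were not called. GRP7 was called higher without replicate 2 of the 6 h mock (0.26), and PRR7 was called higher without replicate 1 of the 15 min mock (0.10) but lower with total-count scaling (-0.15). CDF1 (AT5G62430), a repressor of flowering that peaks in the morning, was lower (-0.61 ± 0.13). Of 28 members tested 9 (32.1%) were higher and 15 (53.6%) lower, against 30.5% higher and 32.1% lower of all genes. The median was -0.20. Among the 24 called the highest edgeR adjusted p was 0.0041, that of RVE7.

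**Figure D4:**
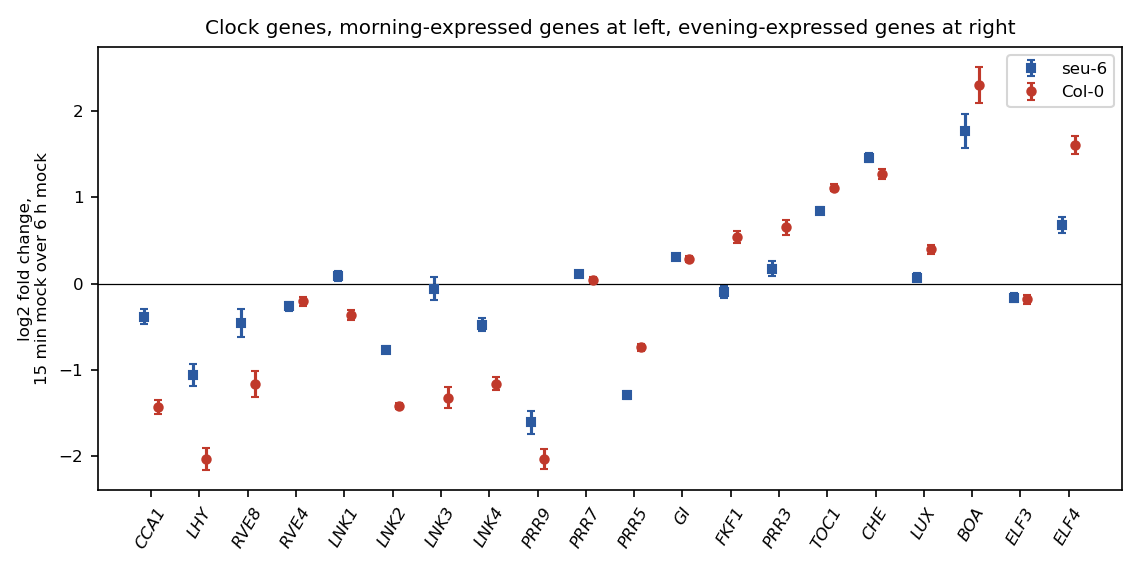
Log2 fold change (15 min mock over 6 h mock, y axis) ± standard error of 20 clock genes, ordered by the part of the day in which each is known to peak, in seu-6 (blue squares) and Col-0 (red circles). In Col-0, CCA1, LHY, PRR9 and LNK2 lie at -1.42 or below, and TOC1, CHE, BOA and ELF4 lie at 1.11 or above.

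The promoters of TOC1 and LUX are shown for the evening element, AAAATATCT, to which CCA1 and the RVE factors bind. The capitals mark it on either strand, and the stretches lie at chr5:24674713-24674962 and chr3:17182792-17183041 (TAIR10.1, both plus strand).
TOC1: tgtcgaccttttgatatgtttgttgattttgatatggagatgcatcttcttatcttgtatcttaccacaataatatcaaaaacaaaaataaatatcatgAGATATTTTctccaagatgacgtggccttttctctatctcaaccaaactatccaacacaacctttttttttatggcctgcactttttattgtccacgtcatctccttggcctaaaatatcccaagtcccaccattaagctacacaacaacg
LUX: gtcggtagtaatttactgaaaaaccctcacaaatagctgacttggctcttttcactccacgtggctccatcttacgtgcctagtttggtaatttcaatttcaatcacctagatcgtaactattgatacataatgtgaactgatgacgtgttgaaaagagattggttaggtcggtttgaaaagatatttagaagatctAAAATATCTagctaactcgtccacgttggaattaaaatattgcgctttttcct
The element stood in 8 of 28 clock promoters, against 648 of 27443 of all promoters (2.36%). Those 8 belong to RVE7, PRR5, TOC1, FKF1, LUX, BOA, GRP7 and GRP8, of which 5 were higher in the 15 min mock, RVE7 and PRR5 lower and GRP7 not called.

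Light and shade genes were divided, with more of them lower than higher. PIL1 (AT2G46970), a shade-avoidance factor, had 0.729 and 0.345 CPM in the 15 min mock, against 4.43 and 4.11 CPM in the 6 h mock (-2.99 ± 0.37, or -3.57 without replicate 1 of the 15 min mock). ELIP2 (AT4G14690), an early light-induced chloroplast protein gene, had 0.830 and 0.740 CPM in the 15 min mock, against 4.89 and 4.63 CPM in the 6 h mock (-2.60 ± 0.25). PHYA (AT1G09570), the far-red photoreceptor, was lower (-0.76 ± 0.031), and so were PIF3 (AT1G09530) (-1.17 ± 0.069) and HYH (AT3G17609) (-1.61 ± 0.17). PIF4 (AT2G43010), a growth-promoting factor, was higher (0.82 ± 0.039), and so were the protochlorophyllide reductase genes PORA (AT5G54190) (1.91 ± 0.12) and PORB (AT4G27440) (1.19 ± 0.027). The list of 14 had 4 higher and 8 lower members, or 7 lower by DESeq2 and in 3 of the 4 fits that leave out a library, and a median of -0.38. For comparison, 30.5% of all genes tested were higher and 32.1% lower. No edgeR adjusted p among the 8 genes named in this paragraph exceeded 2.2e-10.

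Light-harvesting genes were higher and Rubisco small subunit genes lower, by small steps. LHCB2.2 (AT2G05070) had 1866 and 1855 CPM in the 15 min mock, against 1039 and 1074 CPM in the 6 h mock (0.82 ± 0.026), and LHCA1 (AT3G54890), of the photosystem I antenna, had 4855 and 4729 CPM in the 15 min mock, against 2751 and 2756 CPM in the 6 h mock (0.80 ± 0.022). LHCB1.4 (AT2G34430) was 3.12-fold higher and LHCB1.1 (AT1G29920) was 1.47-fold lower, and the members of this subfamily are near-identical copies whose reads may be misassigned. RBCS1A (AT1G67090) (-0.37 ± 0.022), RBCS2B (AT5G38420) (-0.32 ± 0.051) and RBCS3B (AT5G38410) (-0.20 ± 0.041) were lower, again close copies. Of 22 members 16 were higher and 5 lower, with a median of 0.46. Adjusted p-values from edgeR were at most 8.8e-04 for these 7 genes. Summed levels of the 5 shoot markers were 21765 and 22051 CPM in the 15 min mock, against 22890 and 23285 CPM in the 6 h mock.

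Phosphate starvation genes were mostly higher in the 15 min mock. When phosphate runs short, PHR1 and its relatives bind P1BS sites and switch on SPX sensors, transporters, phosphatases and enzymes that swap phospholipids for galactolipids and sulfolipids. SPX3 (AT2G45130) had 9.03 and 9.07 CPM in the 15 min mock, against 0.0441 and 0 CPM in the 6 h mock. The 6 h value rests on 2 counts, and the ratio of summed counts had a 95% exact interval of 112 to 3356, around 406. PS2 (AT1G73010), a phosphatase, had 74.3 and 73.3 CPM in the 15 min mock, against 1.45 and 0.791 CPM in the 6 h mock (6.03 ± 0.13). AT4 (AT5G03545) and IPS1 (AT3G09922), transcripts that sequester miR399, had log2 fold changes of 3.24 ± 0.057 and 5.36 ± 0.22, and AT4 had 186 and 188 CPM in the 15 min mock, against 19.9 and 19.6 CPM in the 6 h mock. The lipid remodelling genes MGD3 (AT2G11810) (4.89 ± 0.18), SQD2 (AT5G01220) (2.47 ± 0.054) and MGD2 (AT5G20410) (2.67 ± 0.16) were higher, as were PAP17 (AT3G17790) (2.87 ± 0.083), SPX1 (AT5G20150) (2.12 ± 0.082) and GDPD1 (AT3G02040) (2.297 ± 0.087), the last with 36.9% of its span shared with a neighbour. Of the transporters PHT1;4 (AT2G38940) was higher (1.18 ± 0.069) and PHT1;1 (AT5G43350) lower (-0.32 ± 0.046). RNS1 (AT2G02990), a ribonuclease, was lower too (-1.63 ± 0.11). In total 12 of 14 members were higher and 2 lower, with a median of 2.57. The edgeR adjusted p was 1.2e-08 or lower for these 13 genes.

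Promoters of SPX3, PS2 and AT4 are shown because these genes hold the P1BS site, GNATATNC, in the window searched, and are among the larger rises of the list. They lie at chr2:18606160-18606409 (plus strand), chr1:27466349-27466598 (minus strand) and chr5:894332-894581 (plus strand) in TAIR10.1, with the sites in capitals.
SPX3: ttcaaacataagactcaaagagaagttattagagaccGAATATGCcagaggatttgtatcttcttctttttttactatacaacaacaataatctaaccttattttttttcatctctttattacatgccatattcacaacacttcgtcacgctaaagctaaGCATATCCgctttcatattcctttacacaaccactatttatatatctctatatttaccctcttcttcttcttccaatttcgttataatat
PS2: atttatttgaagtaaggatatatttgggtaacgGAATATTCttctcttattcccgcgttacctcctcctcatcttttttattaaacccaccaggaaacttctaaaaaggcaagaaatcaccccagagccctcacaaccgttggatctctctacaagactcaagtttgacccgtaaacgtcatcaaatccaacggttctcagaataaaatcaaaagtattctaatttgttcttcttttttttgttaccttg
AT4: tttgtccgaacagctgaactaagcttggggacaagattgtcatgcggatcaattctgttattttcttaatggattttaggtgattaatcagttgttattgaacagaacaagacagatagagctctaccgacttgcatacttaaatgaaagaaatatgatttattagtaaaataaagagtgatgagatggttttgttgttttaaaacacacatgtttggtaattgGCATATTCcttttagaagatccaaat
Sites stood in 5 of 14 promoters of the list, also in MGD2 and GDPD1, against 1498 of 27443 (5.46%) of all promoters. The pattern is its own reverse complement, so a match counts for both strands.

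Nitrate genes went the other way. NRT2.1 (AT1G08090), the high-affinity nitrate transporter of roots, had 4.43 and 6.24 CPM in the 15 min mock, against 38.4 and 39.4 CPM in the 6 h mock (-2.86 ± 0.14). NIA1 (AT1G77760), a nitrate reductase, had 827 and 839 CPM in the 15 min mock, against 1765 and 1716 CPM in the 6 h mock (-1.06 ± 0.025), and NIA2 (AT1G37130), the other nitrate reductase gene, was not called (0.026 ± 0.023) and its call depended on the setting, being higher by DESeq2 (0.069), with DESeq2 size factors (0.069), with no filter on low counts (0.057) and without replicate 1 of the 15 min mock (0.070), and lower with total-count scaling (-0.17). RFNR1 (AT4G05390) (-1.02 ± 0.046) and G6PD2 (AT5G13110) (-0.69 ± 0.048), which supply reducing power for nitrite reduction in roots, were lower. LBD37 (AT5G67420), a repressor of nitrate genes, was higher (0.78 ± 0.036). The list of 14 had 3 higher and 10 lower members and a median of -0.37. Across the 5 called genes named the edgeR adjusted p did not exceed 1.8e-20.

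Sugar starvation genes were mostly higher and low oxygen genes were divided. ASN1 (AT3G47340), an asparagine synthetase that sugar represses, had 746 and 742 CPM in the 15 min mock, against 186 and 184 CPM in the 6 h mock (2.01 ± 0.036), and STP1 (AT1G11260), a sugar importer, had 715 and 712 CPM in the 15 min mock, against 192 and 185 CPM in the 6 h mock (1.92 ± 0.032). BCAT2 (AT1G10070), a branched-chain amino acid transaminase, was lower (-2.01 ± 0.071). Of 13 sugar starvation genes 9 were higher and 3 lower (median 0.79). In the low oxygen list 5 of 13 were higher and 6 lower, against 30.5% higher and 32.1% lower of all genes. Its median of -0.08 ranged between -0.13 without replicate 1 and -0.0071 without replicate 2 of the 6 h mock. The median was -0.015 without replicate 2 of the 15 min mock. ADH1 (AT1G77120), the alcohol dehydrogenase of fermentation, had 44.3 and 50 CPM in the 15 min mock, against 253 and 249 CPM in the 6 h mock (-2.41 ± 0.042). HB1 (AT2G16060), a non-symbiotic haemoglobin (-2.09 ± 0.056), SAD6 (AT1G43800), a desaturase (-1.87 ± 0.071), and PDC1 (AT4G33070), a pyruvate decarboxylase (-1.06 ± 0.049), were lower as well. LBD41 (AT3G02550), a factor of the core low oxygen response, was higher (1.05 ± 0.047), and HRE1 (-0.083 ± 0.098) and HRE2 (0.19 ± 0.33) were not called. In edgeR, adjusted p reached at most 1.7e-15 among the 8 called genes.

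Stomatal lineage genes were lower in the 15 min mock. SPCH (AT5G53210), which starts the lineage, had 3.87 and 3.38 CPM in the 15 min mock, against 15.2 and 16.1 CPM in the 6 h mock (-2.11 ± 0.14). MUTE (AT3G06120), which ends its divisions, had 0.427 and 0.419 CPM in the 15 min mock, against 2.16 and 2.19 CPM in the 6 h mock (-2.35 ± 0.41), and TMM (AT1G80080), a receptor of stomatal patterning, had 9.18 and 9.47 CPM in the 15 min mock, against 25.1 and 24.2 CPM in the 6 h mock (-1.40 ± 0.095). FAMA (AT3G24140) (-0.92 ± 0.087), EPF2 (AT1G34245) (-1.74 ± 0.31), BASL (AT5G60880) (-1.28 ± 0.32) and POLAR (AT4G31805) (-0.71 ± 0.21) were lower too. Thus 7 of 8 were lower and none higher, with a median of -1.34, and EPF1 was not called (-0.87 ± 0.43). The summed level of the 8 was 34.3 and 34.9 CPM in the 15 min mock, against 84.6 and 83.0 CPM in the 6 h mock. In whole seedlings, fewer cells of a type and less RNA per cell cannot be told apart. By edgeR, the highest adjusted p among the 7 called genes was 0.0019.

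Several replication genes were lower, and some mitotic genes were not called. TSO2 (AT3G27060), a ribonucleotide reductase subunit, had 30.8 and 32.8 CPM in the 15 min mock, against 59.4 and 58.2 CPM in the 6 h mock (-0.89 ± 0.064), and MCM4 (AT2G16440) (-0.78 ± 0.093) and MCM5 (AT2G07690) (-0.74 ± 0.080), of the replicative helicase, and PCNA1 (AT1G07370) (-0.75 ± 0.11), the sliding clamp of DNA polymerase, were lower. PCNA1 has a close copy in PCNA2. Mitotic cyclin and kinase genes such as CYCB1;2 (-0.17 ± 0.087) and CDKB2;2 (0.067 ± 0.12) were not called, though CYCB1;2 was called lower without replicate 2 of the 6 h mock (-0.27) and with total-count scaling (-0.36), and CYCB1;1 (AT4G37490) was lower (-0.67 ± 0.15). Of 27 members 13 were lower and 1 higher, CDKB2;1 (AT1G76540) (0.19 ± 0.083), with a median of -0.27 and no change of 2-fold or more. With total-count scaling 19 were lower and 0 higher. CDKB2;1 was not called without replicate 2 of the 15 min mock (0.15), replicate 1 of the 6 h mock (0.20) or replicate 2 of the 6 h mock (0.21), nor with total-count scaling (0.0018). No edgeR adjusted p among the 6 called genes named exceeded 0.037, the value of CDKB2;1.

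Root tissue markers of the tip were lower, and markers of differentiated tissue were in part higher and in part not called. CASP1 (AT2G36100), of the Casparian strip, had 53.8 and 54.5 CPM in the 15 min mock, against 33.5 and 32.4 CPM in the 6 h mock (0.72 ± 0.068), and COBL9 (AT5G49270) of root hairs had 13.7 and 17.1 CPM in the 15 min mock, against 7.40 and 6.30 CPM in the 6 h mock (1.17 ± 0.15). PLT2 (AT1G51190) (-1.43 ± 0.30), PLT1 (AT3G20840) (-0.80 ± 0.24) and WOX5 (AT3G11260) (-1.92 ± 0.45), which mark the root stem cell niche, were lower, and WOX5 had 0.302 and 0.542 CPM in the 15 min mock, against 1.65 and 1.56 CPM in the 6 h mock. PLT1 was not called without replicate 1 of the 15 min mock (-0.42). Of 16 markers 7 were higher, 1 of them by at least 2-fold, 3 were lower and 6 were not called, with a median of 0.43. Their summed level was 196 and 212 CPM in the 15 min mock, against 132 and 130.3 CPM in the 6 h mock, and the part of this shift in the phosphate and nitrate results was not tested. Adjusted p-values from edgeR were at most 0.0024 for these 5 genes.

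Flowering genes were divided, with repressors and activators among both the higher and the lower ones. TOE1 (AT2G28550) and TOE2 (AT5G60120), repressors of flowering, were lower (-0.95 ± 0.050 and -0.94 ± 0.070). TOE1 had 49.0 and 52.7 CPM in the 15 min mock, against 96.1 and 101 CPM in the 6 h mock. Another repressor, SMZ (AT3G54990), was lower (-1.48 ± 0.22), and SNZ (AT2G39250) was not called (0.11 ± 0.11). The activators SOC1 (AT2G45660) (0.73 ± 0.054), FUL (AT5G60910) (2.46 ± 0.58) and FT (AT1G65480) (1.36 ± 0.35) were higher, SOC1 with 70.0 and 70.7 CPM in the 15 min mock, against 42.4 and 42.2 CPM in the 6 h mock. AP1 (AT1G69120), a floral meristem factor, was higher (2.38 ± 0.85) at 0.754 and 0.321 CPM in the 15 min mock, against 0.0881 and 0.113 CPM in the 6 h mock, and was not called without replicate 1 of the 15 min mock (1.69) or of the 6 h mock (2.22). SVP (AT2G22540), a repressor, was slightly higher (0.25 ± 0.059), but not with total-count scaling (0.056). CO (AT5G15840) (-1.82 ± 0.50), which shares 67.4% of its span with other transcripts, SPL9 (AT2G42200) (-1.07 ± 0.19) and SPL10 (AT1G27370) (-0.39 ± 0.10) were lower, SPL10 without a call when replicate 2 of the 15 min mock (-0.28) or replicate 1 of the 6 h mock (-0.27) was left out. FUL stood at 3.5 without replicate 1 of the 6 h mock. SPL4 (0.59 ± 0.36), SPL5 (1.12 ± 0.67) and FLC (-1.26 ± 0.66) were not called, and the last pair lie wholly within other annotated transcripts. SPL3 was too low to test and SPL15 is listed at 0, both almost or wholly overlapped by other loci. Of 15 members 5 were higher and 6 lower, against 30.5% higher and 32.1% lower of all genes, with a median of 0.11, or -0.079 with total-count scaling. The edgeR adjusted p was 0.012 or lower for the 11 called genes, the highest being that of AP1.

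Wall, auxin and cytokinin genes were mixed. XTH23 (AT4G25810) (4.48 ± 0.11) and XTH18 (AT4G30280) (3.76 ± 0.049), wall enzymes of the TCH4 family, were higher, XTH18 with close copies in XTH17 and XTH19. EXPA1 (AT1G69530), an expansin that loosens walls, had 54.7 and 54.3 CPM in the 15 min mock, against 193 and 193 CPM in the 6 h mock (-1.83 ± 0.046). The cell wall loosening list had 10 higher and 6 lower of 18 (median 0.30). Over the whole expansin A family, counted after these results were seen, 2 of 18 were higher and 11 lower, 8 of them by at least 2-fold, with a median of -0.65. IAA29 (AT4G32280), an auxin repressor gene that responds to light and temperature, had 1.33 and 1.41 CPM in the 15 min mock, against 23.2 and 26.5 CPM in the 6 h mock (-4.18 ± 0.18). The auxin efflux carrier genes PIN7 (AT1G23080) (-0.93 ± 0.039) and PIN3 (AT1G70940) (-0.74 ± 0.048) were lower, and IAA2 (AT3G23030) was a little higher (0.30 ± 0.042). For all genes tested the shares were 30.5% higher and 32.1% lower. The auxin list had 7 higher and 6 lower of 17 (median 0.01), a balance that rests on single libraries. It had 4 higher and 5 lower without replicate 1 of the 15 min mock, and 3 higher and 6 lower without replicate 1 of the 6 h mock or with total-count scaling. Of 9 type-A cytokinin response regulators 2 were higher and 5 lower (median -0.65), with ARR8 (AT2G41310) at -0.97 ± 0.078 and ARR3 (AT1G59940), one of the 2 higher, at 1.55 ± 0.24. Across these 9 genes the edgeR adjusted p did not exceed 1.2e-07.

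Flavonoid genes were higher in the late part of the pathway. DFR (AT5G42800) (3.18 ± 0.22) and LDOX (AT4G22880) (3.07 ± 0.26), which make anthocyanin precursors, and their activator PAP1 (AT1G56650) (2.98 ± 0.46, or 4.07 without replicate 2 and 2.36 without replicate 1 of the 6 h mock) were higher, DFR with 8.85 and 10.2 CPM in the 15 min mock, against 1.06 and 1.04 CPM in the 6 h mock. CHS (AT5G13930), the first enzyme, was higher by 1.402-fold, and MYB111 (AT5G49330), an activator of flavonol synthesis, was lower (-2.20 ± 0.41). The list had 6 higher and 3 lower of 11 (median 0.49), and F3H, listed at 0, was not measured. Glucosinolate and myrosinase genes had 6 higher and 2 lower of 10 (median 0.12), or 1 higher and 5 lower with total-count scaling, with MYB28 (AT5G61420), the main activator of the aliphatic branch, lower (-1.29 ± 0.064). Of 19 aquaporins 12 were higher and 3 lower (median 0.17), or 9 higher and 8 lower with total-count scaling, PIP1;3 (AT1G01620) by the most (1.11 ± 0.031). The seed storage and oleosin list had 3 higher and 1 lower of 14, against 30.5% higher and 32.1% lower of all genes. No value was above 2.08 CPM in any of the 4 libraries, and 5 of the 14 had no count in any of them. The filter covered all 16 libraries, and the list summed to 185 CPM in each 6 h mock library of seu-6. With such members the median of 0.00 says little. In a fit of the 4 mock libraries alone 1 was higher and 0 lower, and without replicate 1 of the 6 h mock 2 were higher and 0 lower. In edgeR, adjusted p reached at most 3.4e-06 among the 7 genes named with a value.

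Across all genes with a mean of at least 3 on the log2 CPM scale, the 12 largest rises were headed by RRTF1 and DDF1 and held 3 jasmonate genes described above, LOX4, JAZ7 and JAZ8. CYP76G1 (AT3G52970), a cytochrome P450 gene, had 16.7 and 16.7 CPM in the 15 min mock, against 0 and 0 CPM in the 6 h mock, at least 249-fold higher. FAMT (AT3G44860), a farnesoic acid methyltransferase, had 88.6 and 85.2 CPM in the 15 min mock, against 0.397 and 0.429 CPM in the 6 h mock (7.71 ± 0.11). Its neighbour AT3G44870 is a close copy and was higher too (8.49 ± 0.32). PCC1 (AT3G22231), a small defence- and clock-linked gene, had 19.1 and 16.7 CPM in the 15 min mock, against 0.0881 and 0.113 CPM in the 6 h mock (7.43 ± 0.23), and GRX480 (AT1G28480), a glutaredoxin of the salicylate and jasmonate cross-talk, had 39.4 and 35.7 CPM in the 15 min mock, against 0.352 and 0.271 CPM in the 6 h mock (6.89 ± 0.21). AT5G04120, of the phosphoglycerate mutase family (8.45 ± 0.20, or 10.02 without replicate 2 and 7.71 without replicate 1 of the 6 h mock), and AT4G27654 (8.53 ± 0.26) complete the 12.

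The 12 largest falls were smaller in size and included IAA29 and NRT2.1. ST2A (AT5G07010), a sulfotransferase that acts on hydroxyjasmonate, had 13.4 and 12.8 CPM in the 15 min mock, against 123 and 123 CPM in the 6 h mock (-3.23 ± 0.056). EXPA16 (AT3G55500), an expansin, had 2.62 and 2.59 CPM in the 15 min mock, against 24.4 and 22.1 CPM in the 6 h mock (-3.16 ± 0.11), and AAP3 (AT1G77380), an amino acid transporter, had 9.15 and 8.80 CPM in the 15 min mock, against 62.3 and 54.3 CPM in the 6 h mock (-2.70 ± 0.083). STH (AT2G31380), a B-box protein of light signalling, had 6.46 and 5.55 CPM in the 15 min mock, against 37.8 and 36.9 CPM in the 6 h mock (-2.64 ± 0.10). AT5G48430 of the aspartyl protease family (-3.28 ± 0.14), AT5G38940 of the cupin family (-3.03 ± 0.092) and AT3G59930, a defensin-like gene (-2.64 ± 0.13), were lower too. AT5G02760, a protein phosphatase 2C gene overlapped by an antisense transcript (-2.65 ± 0.082), AT5G02540 (-2.63 ± 0.12) and TRM13 (AT2G45900) (-2.58 ± 0.19) complete the list. By edgeR, the highest adjusted p among the 16 genes with a log2 value in this and the preceding paragraph was 2.1e-18.

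The treated libraries of Col-0 show where these levels stood within each experiment. TCH4 averaged 480.4 ± 14.3 CPM under NaCl for 15 min and 17.8 ± 0.154 CPM under sorbitol for 6 h, against 1299 ± 40.6 CPM in the 15 min mock and 74.6 ± 1.53 CPM in the 6 h mock (mean ± SD, n = 2 each). SPX3 averaged 7.47 ± 0.482 CPM under NaCl and 2.02 ± 0.300 CPM under sorbitol, against 9.05 ± 0.0322 CPM in the 15 min mock and 0.0220 ± 0.0312 CPM in the 6 h mock. SPCH averaged 3.96 ± 0.338 CPM under NaCl and 7.72 ± 0.13 CPM under sorbitol, against 3.63 ± 0.350 CPM in the 15 min mock and 15.6 ± 0.594 CPM in the 6 h mock. CCA1 averaged 10.3 ± 1.19 CPM under NaCl and 76.7 ± 0.248 CPM under sorbitol, against 14.6 ± 0.131 CPM in the 15 min mock and 39.4 ± 3.81 CPM in the 6 h mock. For each of these 4 genes, which were picked after their values were seen, both groups of the 15 min experiment lay on one side of both groups of the 6 h experiment. Between the mocks alone, the groups did not overlap for 79.8% of genes tested. The share of all genes with the wider pattern was not counted, so it carries little weight for these 4.

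The same contrast in seu-6 uses 4 libraries that the Col-0 contrast does not. In seu-6, 13607 genes (60.3%) were called, 6583 higher (29.2%) and 7024 lower (31.1%) in the 15 min mock, and 4000 genes (17.7%) were called at 2-fold or more, 2544 higher (11.3%) and 1456 lower (6.45%). With total-count scaling the seu-6 split was 4666 higher and 10535 lower, and at 2-fold or more the balance turned, with 2029 higher and 2358 lower. Both contrasts called 11112 genes in the same direction and 266 in opposite directions. Of the 4400 genes called at 2-fold or more in Col-0, 2976 were so in seu-6 in the same direction, which is 67.6% of the Col-0 genes and 74.4% of the seu-6 genes. A further 637 were not called in seu-6 and 31 were called the opposite way. The difference between the genotypes, tested as an interaction (seu-6 minus Col-0), was called for 3654 genes (16.2%), 1599 higher in seu-6 (7.08%) and 2055 lower (9.1%).

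Most jasmonate, WRKY and phosphate genes had a lower log2 fold change between the mocks in seu-6. For JAZ10 the log2 fold change was 2.34 ± 0.078 in seu-6 and 4.26 ± 0.086 in Col-0, and for CYP94B3 it was 2.75 ± 0.078 in seu-6 and 5.62 ± 0.092 in Col-0. Of 26 jasmonate genes the difference was called for 24, of which 23 had a lower log2 fold change in seu-6, and the medians were 2.1 in seu-6 and 2.75 in Col-0. The exception was LOX2, with 2.08 ± 0.038 in seu-6 and 0.24 ± 0.037 in Col-0. For 15 of 21 WRKY factors the value in seu-6 was lower and for none higher, with medians of 1.90 in seu-6 and 2.50 in Col-0. AT4 stood at 1.03 ± 0.057 in seu-6 and 3.24 ± 0.057 in Col-0, and SPX1 at -0.050 ± 0.088 in seu-6 and 2.12 ± 0.082 in Col-0. Of 14 phosphate starvation genes 12 were lower in seu-6 by this measure and none higher, with medians of 1.24 in seu-6 and 2.57 in Col-0. A lower value is a larger fall for genes that were lower in the 15 min mock, as for RNS1 (-3.39 ± 0.12 in seu-6 and -1.63 ± 0.11 in Col-0), PHT1;1 (-1.10 ± 0.048 in seu-6 and -0.32 ± 0.046 in Col-0) and WRKY29 (-1.20 ± 0.11 in seu-6 and -0.60 ± 0.11 in Col-0). In touch and calcium genes 11 of 15 were lower and 1 was higher, with medians of 2.59 in seu-6 and 3.40 in Col-0. The highest edgeR adjusted p of the difference among the 8 genes was 0.0021.

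Low oxygen genes had lower log2 fold changes in seu-6, and most light-harvesting and auxin genes had higher ones. LBD41 was lower in the 15 min mock of seu-6 (-0.53 ± 0.047) and higher in that of Col-0 (1.05 ± 0.047), and ADH1 stood at -3.19 ± 0.043 in seu-6 and -2.41 ± 0.042 in Col-0. For 12 of 13 low oxygen genes the value in seu-6 was lower and for none higher, with medians of -1.22 in seu-6 and -0.08 in Col-0. For 21 of 22 light-harvesting and Rubisco genes it was higher and for none lower, with medians of 0.80 in seu-6 and 0.46 in Col-0. For 12 of 17 auxin genes it was higher and for none lower, with medians of 0.86 in seu-6 and 0.01 in Col-0, and GH3.5 (AT4G27260), an auxin-conjugating enzyme, stood at 1.97 ± 0.080 in seu-6 and 0.51 ± 0.067 in Col-0. Of 28 clock genes the value in seu-6 was higher for 7 and lower for 6, with CCA1 at -0.38 ± 0.085 in seu-6 and -1.43 ± 0.081 in Col-0, and LHY at -1.06 ± 0.13 in seu-6 and -2.04 ± 0.13 in Col-0. SPCH stood at -2.01 ± 0.14 in seu-6 and -2.11 ± 0.14 in Col-0, a difference of 0.094 ± 0.20 that was not called (edgeR adjusted p = 0.84). The highest edgeR adjusted p of the difference among LBD41, ADH1, GH3.5, CCA1 and LHY was 2.5e-05. Seed storage and oleosin transcripts were present in the 6 h mock of seu-6, CRA1 at 57.4 and 56.2 CPM in its 2 libraries, and the part of that in the seu-6 contrast was not tested.

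**Figure D5:**
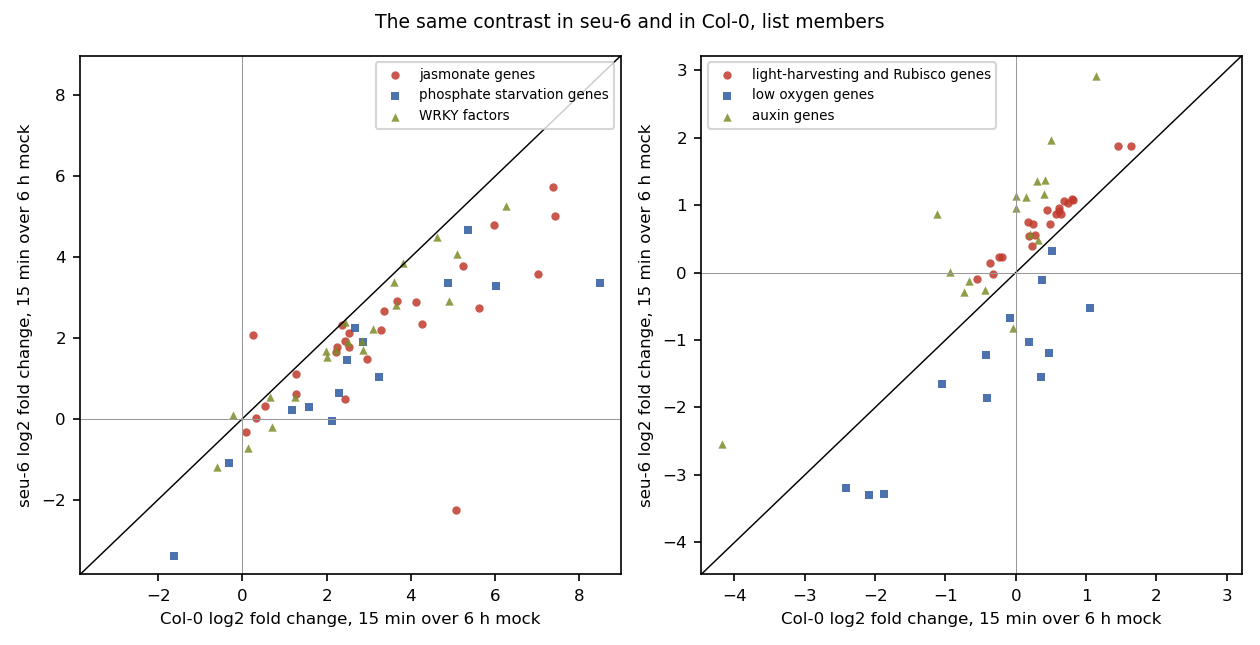
Log2 fold change (15 min mock over 6 h mock) of list members in seu-6 (y axis) against the same in Col-0 (x axis), with jasmonate, phosphate and WRKY genes in the left panel and light-harvesting, low oxygen and auxin genes in the right panel. Points below the diagonal had a lower value in seu-6, as 23 jasmonate, 12 phosphate and 12 low oxygen genes did by the test, and points above it a higher one, as 21 light-harvesting and Rubisco genes did.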

How the data were processed

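Whole-seedling RNA was sequenced in 16 libraries of 8 groups, 2 per group, and 4 of them are the Col-0 mocks described here. The authors deposited raw read counts per gene, made with HISAT2 2.2.1 on TAIR10 and HTSeq 0.13.5, with DESeq2 also listed, per the submitters' processing notes. Whether counting used strand is not given in the sources used here, so a gene and an overlapping or antisense partner cannot be told apart. The 5 summary lines of each count file, 8.78% to 10.8% of the counts in the Col-0 mocks, entered neither library sizes nor tests.

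Counts were filtered with filterByExpr, scaled by TMM and fitted in edgeR 4.0.16 (R 4.3.3, limma 3.58.1) with a robust quasi-likelihood model of 1 mean per group over all 16 libraries. P-values were adjusted over all genes tested by the Benjamini-Hochberg method, and a gene is called at an adjusted p under 0.05. CPM values are counts per 1000000 of the TMM-scaled library size. Floors of 3 counts per library and exact 95% intervals of ratios of summed counts cover counting error only. DESeq2 1.42.0 served as an alternative test. The scripts were tested on simulated counts.

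The 27 gene lists and the choice of these 4 libraries were made with earlier results of these data known. Of 467 members written, 452 were matched by locus and name, 15 were dropped for lack of a match, and 442 were tested. The low oxygen list went from 18 to 13 members in this way, and the zinc finger list from 11 to 8. The naming rule took the 12 largest changes each way among called genes (mean log2 CPM 3 or more), each list's 5 members of smallest adjusted p, the largest change against each list's majority, and all clock and flowering genes. Further list members and whole gene families were added after their values were seen. Promoters are RefSeq sequences of TAIR10.1, trimmed to the 250 bases before the annotated start. Summary tables were made with pandas 2.3.3 and scipy 1.17.1 in python 3.11.15.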

Additional observations from a re-analysis of the deposited data

Results flagged for a closer look

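For 50 of the 210 genes named with a tested value, the log2 fold change between the mocks differed by at least 1 between seu-6 and Col-0 and the difference itself was called, at an edgeR adjusted p of 0.041 or lower. The value was lower in seu-6 for 37 and higher for 13. Another 74 of the genes had a called difference of smaller size. Over all 22582 genes tested, a difference of any size was called for 16.2%, 7.08% higher in seu-6 and 9.1% lower. Many of the named genes were chosen by their values in Col-0, which enter the difference. Their counts are therefore not those of an unselected set. Each difference below is seu-6 minus Col-0 on the log2 scale.

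Jasmonate genes made up the longest group of lower values, with JAZ8 at -3.43, CYP94B3 at -2.87, JAZ7 at -2.39, JAZ10 at -1.92, LOX4 at -1.63, JAZ5 at -1.45, CYP94C1 at -1.22, LOX3 at -1.18 and JAZ1 at -1.10. LOX2, the leaf chloroplast lipoxygenase, was the one jasmonate gene with a higher value, at 1.84. Among phosphate starvation genes SPX3 stood at -5.12, PS2 at -2.74, AT4 at -2.21, SPX1 at -2.17, RNS1 at -1.76, GDPD1 at -1.67, MGD3 at -1.53 and SQD2 at -1.03. The size for SPX3 depends on the prior count, since its 6 h mock of Col-0 held 2 counts.

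Touch, calcium and early stress factors were lower by smaller steps, with CML38 at -1.71, CML23 at -1.46, DREB2A at -1.40, ERF13 at -1.37, ZAT10 at -1.18, ERF6 at -1.08 and TCH4 at -1.03, while CBF3, which was not called in Col-0, stood at 1.24. Low oxygen genes were lower too, with LBD41 at -1.58, SAD6 at -1.42 and HB1 at -1.21. Of the largest rises in Col-0, CYP76G1 stood at -5.33, AT3G44870 at -4.74, AT5G04120 at -4.41, FAMT at -3.67, PCC1 at -3.55 and GRX480 at -2.39. These genes were picked for a large value in Col-0, which is subtracted in the difference. That choice by itself favours lower values in seu-6. CYP76G1 has no count in the 6 h mock of Col-0, so the size of its difference also depends on the prior count. DFR at -2.01, ARR3 at -1.68, COR15A at -1.11 and HSP70 at -1.04 complete the lower values.

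Higher values in seu-6 were found for MUTE at 1.66, IAA29 at 1.64, TRM13 at 1.55, GH3.5 at 1.46, ASN1 at 1.35, AT5G02760 at 1.35, AT5G02540 at 1.27, LNK3 at 1.26, CCA1 at 1.05, IAA2 at 1.05 and PBS3 at 1.03. In the 6 h mock of seu-6, replicate 1 held 0.0949% of its counts in chloroplast genes and replicate 2 held 0.0280%, and the part of that in these differences was not tested.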

How the results depend on the processing

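The number of genes called in Col-0 lay between 12568 and 12693 without single libraries, was 13600 by DESeq2 and 15316 with total-count scaling, against 14117 as reported. Total-count scaling moved the genes called at least 2-fold lower to 2225 in Col-0 (1394 as reported) and to 2358 in seu-6 (1456 as reported). It reversed the medians of the flowering list (-0.079), the auxin list (-0.18), the glucosinolate and myrosinase list (-0.077) and the aquaporins (-0.020), and the sign of PRR7 (-0.15), TGG2 (-0.067) and NIA2 (-0.17). Scaling the libraries by total counts shifts every gene by about the same amount, by construction.

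Without replicate 1 of the 15 min mock the ethylene median was -0.18 and the flavonoid median 0.86, and without replicate 2 of the 6 h mock the flavonoid median was 0.79. In a fit of the 4 Col-0 mock libraries alone the heat shock median was 2.21, with 10 higher and 0 lower members. That fit filtered genes on those 4 libraries only and tested 21322 genes, so a list can hold fewer members in it. The cause was not tested in these cases. Replicate 1 of the 15 min mock held 0.0488% of its counts in chloroplast genes and replicate 2 held 0.0286%.

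The labels number replicates without saying that a number marks a shared batch, and deviations of same-numbered libraries of the 15 min mock and the 6 h mock were uncorrelated across 15399 genes (r = -0.0047). With the replicate number as a block, 14063 genes were called, or 13939 in a fit of the 4 libraries alone, an alternative added after the data were seen. No named gene changed its call under the block in the fit of all 16 libraries. With the block in the fit of the 4 libraries alone, GRP7 was called higher (0.11) and OLEO4 lost its call (-0.71).

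With 2 libraries per group, genes near the limit of detection are poorly measured, and some genes that lie within another locus, such as ERF105, are listed at 0.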
